A study of Brassica rapa with 6 samples.

Results

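The miRNA families miR399, miR827, miR2111 and miR778 belong to the phosphate starvation response of plants, and their forms were followed here in the leaf and petiole of Chinese cabbage (Brassica rapa). The members were all entries of the deposited table whose name carried 1 of these 4 family numbers, with entries of the same sequence counted once. This gave 11 distinct sequences among the 1011 of the table: 6 of miR2111, 3 of miR399 and 2 of miR827. None of the table's entries analysed here carried a miR778 name, so that family was not analysed here. Small RNA had been sequenced from 3 leaf and 3 petiole libraries of wild-type plants under normal greenhouse growth. The petiole is the stalk of a leaf. The sources used here do not state the cultivar, plant age or phosphate supply, and no small RNA is known to mark leaf blade or petiole alone, so the tissue labels were not checked by markers.

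When phosphate is short, Arabidopsis raises these miRNAs, and miR399 and miR827 then lower the mRNAs of proteins that hold back phosphate uptake and transport. In that species, miR399 targets PHO2, a ubiquitin-conjugating enzyme that leads phosphate exporters and importers to breakdown. There miR827 targets NLA, a ubiquitin ligase that removes phosphate importers from the plasma membrane, and miR778 targets a histone methyltransferase. In the legume Lotus japonicus, miR2111 moves from shoot to root and lowers an F-box protein that restrains nodulation, and miR399, miR827 and miR2111 have been found in the phloem sap of rapeseed. A miRNA precursor gives a duplex of a 5p and a 3p strand, of which usually 1 is kept as the guide. For miR399 and miR827 the guide lies on the 3p side, and for miR2111 the 5p strand carries the known target pairing.

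The miR827 forms are shown because the first of them had the largest tested difference between the tissues among the members. Capitals mark the seed, bases 2 to 8 from the 5′ end, in these and all later sequences, which are written 5′ to 3′ as deposited, with T for U.
ath-miR827_2ss20CT21TA: tTAGATGAccatcaacaaata
cas-MIR827a-p5: tTTGTTGAttgacatctatgc
The name of the first form states 2 substitutions against the Arabidopsis entry, C20T and T21A, both at the 3′ end and outside the seed (positions count from 1 at the 5′ end). Set against each other with an overhang of 2 bases at each 3′ end, the 2 forms paired at 16 of 19 positions, as the strands of a miRNA duplex do.

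The miR2111 forms are shown because they differ by few bases and were found at different levels.
bna-miR2111b-3p: aTCCTCGGgatacagattacc
bra-miR2111b-3p: aTCCTCGGgatacggattacc
bra-miR2111a-3p: gTCCTCGGgatgcggattacc
bra-miR2111-3p: gACCTCAGgatgcggattacc
bra-miR2111a-5p: tAATCTGCatcctgaggttta
bra-miR2111-5p: tAATCTGCatcctggggttta
From bra-miR2111b-3p to bna-miR2111b-3p the only change was G14A, and between both 5p forms it was A15G. The first 3 of the 3p forms shared a seed. The seed of bra-miR2111-3p differed from that of bra-miR2111a-3p by T2A and G7A, and both 5p forms shared a seed of their own. From bra-miR2111a-5p to bra-miR2111-5p the change lies outside it. The strands named for 1 locus paired along the duplex, bra-miR2111a at 15 and bra-miR2111 at 16 of 19 positions by Watson-Crick pairs, with 3 G-U pairs in each. Across names, bra-miR2111a-5p paired with bra-miR2111-3p at 17 positions by Watson-Crick pairs, with 2 G-U pairs. Pairing therefore did not settle which strands share a locus, and loci are taken from the names. RefSeq's Brassica rapa annotation (assembly CAAS_Brap_v3.01) names 3 miR2111 genes among its 88 miRNA genes and none of the other families.

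The miR399 guide is shown because it is the strand that pairs with PHO2 in Arabidopsis.
ath-miR399b: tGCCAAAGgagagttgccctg
The remaining miR399 entries, ath-miR399c-5p_1ss20GC and cme-miR399g_L-1_1ss13CT, differed from each other at 3 of 21 positions, A5T, T9C and C20G. Each paired with ath-miR399b at 15 of 19 duplex positions. The name of cme-miR399g_L-1_1ss13CT gives no arm, and it was read as a 5p form from its likeness to ath-miR399c-5p_1ss20GC. The names of ath-miR399b and ath-miR827_2ss20CT21TA give no arm either. These were read as 3p forms from the same pairing with ath-miR399c-5p_1ss20GC and cas-MIR827a-p5 that is given above. All 11 members were 21 bases long, but their GC content ran from 28.6% to 61.9%. How evenly the libraries captured different sequences was not tested. Comparisons between forms, strands or families are therefore comparisons of counts. Among the 1011 sequences of the table no other family shared a seed with a member.

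The tissue profile of miR827 ran opposite to those of miR2111 and miR399. In leaf, miR827 made up most of the phosphate-family signal. In petiole, miR827 was a small part, miR2111 made up most of the signal and miR399 held a larger part than in leaf. As a part of the 3 families summed, miR827 held 83.6%, 84.4% and 82.9% in the leaf libraries and 3.96%, 4.48% and 4.02% in the petiole libraries. For miR2111 the parts were 12.8%, 14.9% and 14.96% in leaf and 81.3%, 85.8% and 80.7% in petiole. These parts do not change when a whole library is multiplied by a single factor, and no leaf value came near a petiole value. The 3 families together accounted for 924 to 1026 per 1000000 of a library's summed normalized count in leaf and 760.2 to 836 per 1000000 in petiole. In bulk tissue, fewer cells that hold a miRNA and less of it per cell cannot be told apart.

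**Figure D1:**
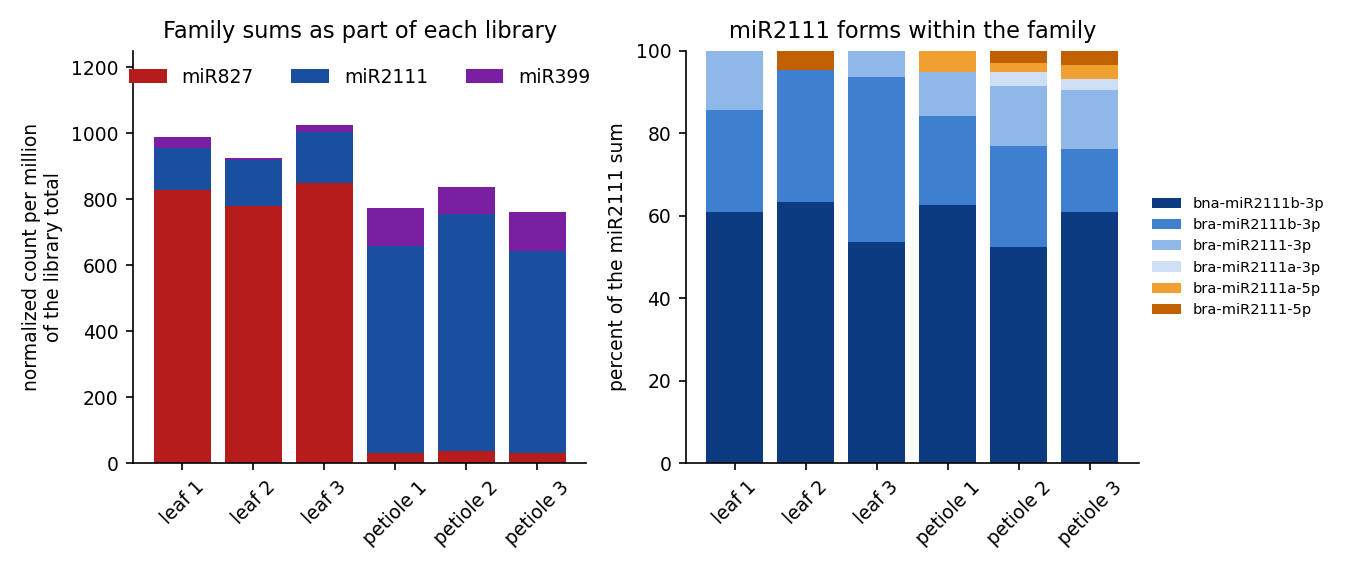
Left, stacked bars give the sum of each family per 1000000 of the library's summed normalized count, for the 3 leaf and 3 petiole libraries; right, stacked bars give each miR2111 form as a percent of the miR2111 sum. miR827 holds 82.9% to 84.4% of the stacked bar in leaf and at most 4.48% in petiole, while bna-miR2111b-3p is the largest miR2111 form in all 6 libraries.

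Totals over the table differed between the tissues, which bears on every level. Summed normalized counts were 789728 ± 15787 in leaf and 436475 ± 10506 in petiole (SD, n = 3 each). With the main regular step of the values taken as 1 read, they stood for 457189 to 771286 reads per library. Levels are therefore given both as deposited and after scaling every library to the same total. That scaling moved the median difference of all 601 tested sequences from 0.18 to 0.97 on the log2 scale, petiole minus leaf. The table listed few values under 5 reads (9.39% to 12.5% of the values above 0 in a library), and the lowest member value above 0 was 5.0 reads, and a 0 is therefore called listed at 0 rather than absent.

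Detection differed by library. Of the 11 members, 8, 6 and 7 were listed above 0 in leaf replicates 1, 2 and 3, and 8, 10 and 10 in petiole replicates 1, 2 and 3. Over all 1011 sequences, 687, 678 and 709 were listed above 0 in these leaf libraries and 755, 767 and 792 in these petiole libraries. The 4 forms above 0 in every library were ath-miR827_2ss20CT21TA, bna-miR2111b-3p, bra-miR2111b-3p and cme-miR399g_L-1_1ss13CT. Differences were tested with limma on log2(value + 1) over all sequences with a mean of at least 5, and 7 of the 11 members passed that filter. At a Benjamini-Hochberg adjusted p under 0.05, 2 of these 7 were higher and 2 lower in petiole, against 21.3% higher and 28.3% lower among all tested sequences. With equal totals, 5 of the 7 were higher and 2 lower, against 53.4% and 17.8% of all. After quantile normalization 1 was higher and 2 lower, against 23.0% and 24.1%. With equal totals and no filter 6 of 11 were higher, against 33.6% of all 1011 sequences. Leaf and petiole values did not overlap for 6 of the 11 as deposited, against 41.3% of all 1011, and for 9 of the 11 with equal totals, against 54.3%. The median log2 difference of the 7 was 0.70, beside 0.18 over all tested, and 1.54 beside 0.97 with equal totals. Since a form high in 1 tissue alone could pass the filter through that tissue, these counts describe the members and do not set them apart.

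**Figure D2:**
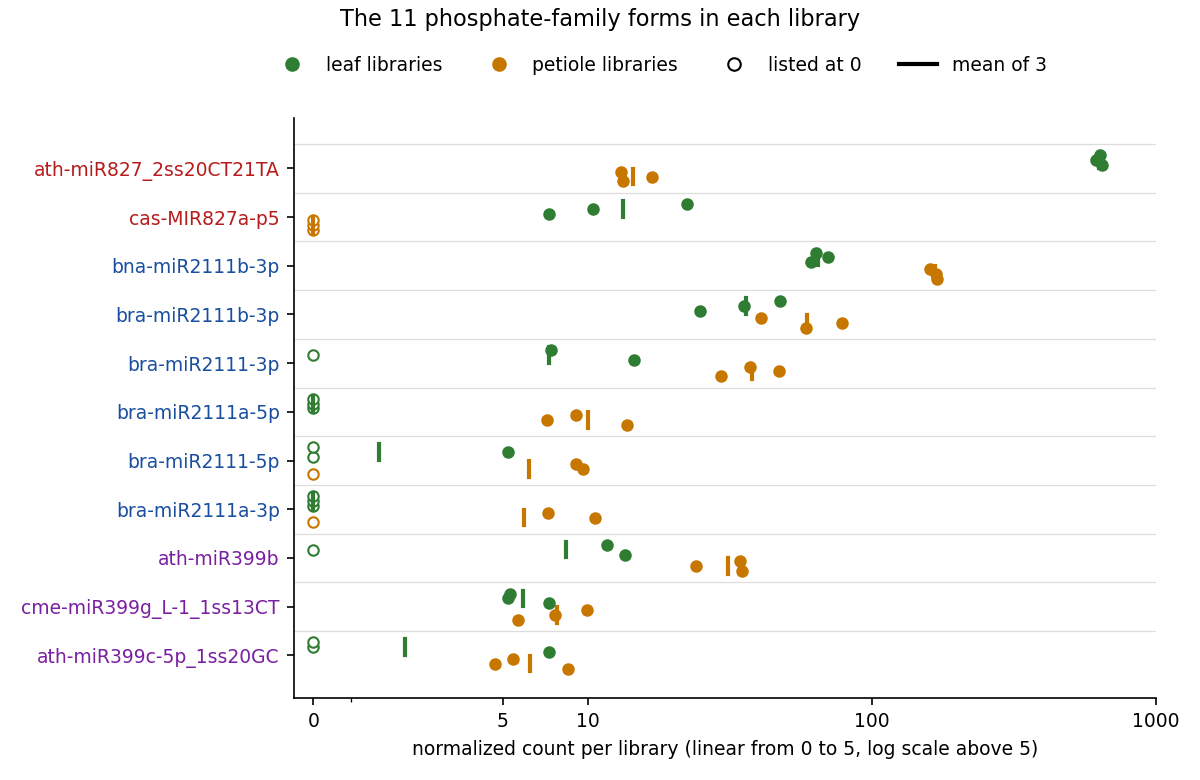
Points give the normalized count of each of the 11 forms in the 3 leaf (green) and 3 petiole (orange) libraries, on an axis that is linear up to 5 and logarithmic above, with open points for values listed at 0 and short bars for the mean of 3; label colours mark the families. The leaf values of ath-miR827_2ss20CT21TA, from 617 to 648, lie far right of its petiole values, from 13.1 to 16.8, while the petiole values of bna-miR2111b-3p, from 160.1 to 170.2, lie right of its leaf values.

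The main form of miR827 was lower in petiole by more than 5 on the log2 scale. The normalized counts of ath-miR827_2ss20CT21TA were 648, 617 and 635 in leaf replicates 1 to 3 and 13.2, 16.8 and 13.1 in petiole replicates 1 to 3. All leaf values were far above all petiole values, and within each tissue the values lay close together. The leaf mean of 633 was 44.1 times the petiole mean of 14.4, and with equal totals 24.4 times. The log2 difference was -5.37 ± 0.12 (SE), with a limma adjusted p of 2.7e-07. With equal totals it was -4.55 ± 0.11 (limma adjusted p = 4.3e-07). Relative to the median of all tested sequences the difference was -5.56 as deposited and -5.52 with equal totals. The petiole values stood for 14.0, 17.5 and 14.5 reads, against 592 to 625 reads in leaf. These values often fell on steps of 0.5 reads.

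The rank of this form within each library, which no scaling changes, moved with it. In leaf it stood 61st, 61st and 62nd of the sequences by level, and in petiole 392nd, 355th and 407th. Among the 601 tested sequences its log2 difference was the 15th lowest. The sum of both miR827 forms was the 9th lowest of 80 family sums.

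The miR827 duplex partner was listed above 0 in leaf libraries alone. The entry cas-MIR827a-p5 had normalized counts of 7.26, 10.4 and 22.2 in leaf replicates 1 to 3 and stood at 0 in petiole replicates 1, 2 and 3. In leaf it made up 1.11%, 1.66% and 3.38% of the miR827 sum. It passed the filter on the mean through leaf, and its fitted log2 difference of -3.70 (limma adjusted p = 0.00089) depends on the value added before the logarithm, so no fold is given. With at most 17.5 reads of the guide in a petiole library, a partner at its leaf share was not detectable at this depth.

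The miR2111 family was higher in petiole. The family sum was 101, 110.5 and 119 in leaf replicates 1 to 3 and 272, 322 and 263 in petiole replicates 1 to 3, with no overlap between the tissues. The log2 difference of the sums was 1.37 ± 0.12 (SE; limma adjusted p = 4.8e-05), and 2.22 ± 0.12 with equal totals (limma adjusted p = 3.6e-06). Of 80 family sums, 27.5% were called higher and 53.8% lower as deposited, and the same shares had no overlap between the tissues. With equal totals 48.8% were called higher and 38.8% lower, and after quantile normalization 42.5% and 37.5%. Relative to the median family the miR2111 difference was 2.14 on both scales.

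Most of the miR2111 signal, and of its difference, lay in the 3p strands. The leading form was bna-miR2111b-3p, with normalized counts of 61.2, 69.8 and 63.5 in leaf and 170.2, 168.8 and 160.1 in petiole. The tissues did not overlap, and the petiole mean was 2.56 times the leaf mean as deposited and 4.64 times with equal totals. Its log2 difference was 1.35 ± 0.09 (SE; limma adjusted p = 3.5e-05) as deposited. This form held 52.5% to 63.2% of the miR2111 sum over the 6 libraries, 59.2% ± 5.02 in leaf and 58.6% ± 5.42 in petiole (SD, n = 3 each), a difference within the spread between replicates.

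A single base away, bra-miR2111b-3p was at 24.9, 35.4 and 47.7 in leaf and 58.6, 78.7 and 40.7 in petiole. Its tissues overlapped, since petiole replicate 3 lay below leaf replicate 3. The log2 difference of 0.70 (95% interval -0.07 to 1.47) did not pass as deposited (limma adjusted p = 0.115). With equal totals the tissues no longer overlapped and the difference of 1.54 passed (limma adjusted p = 0.0055). Its part of the miR2111 sum was 24.7%, 32.1% and 40.2% in leaf and 21.6%, 24.4% and 15.5% in petiole. The lowest leaf part and the highest petiole part lay side by side. Whether the authors' matching allowed mismatches, so that forms a base apart could share reads, is not stated in the sources used here.

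The form with its own seed, bra-miR2111-3p, had normalized counts of 14.5, 0 and 7.41 in leaf and 29.3, 47.0 and 37.1 in petiole, with no overlap. Its log2 difference of 2.91 ± 0.98 (SE) passed narrowly as deposited (limma adjusted p = 0.0488) and passed with equal totals (3.60, limma adjusted p = 0.0124). The call was lost without leaf replicate 3 (3.27, limma adjusted p = 0.0816) and without petiole replicate 1, 2 or 3 (3.07, 2.74 and 2.91, with limma adjusted p of 0.105, 0.138 and 0.116). It was also lost after quantile normalization, with 0.5 added in place of 1, without the filter and without the trend (limma adjusted p = 0.0671, 0.0751, 0.0624 and 0.0701). Without leaf replicate 2, where it was listed at 0, the difference shrank to 1.74 and passed (limma adjusted p = 0.0144).

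The rarest miR2111 forms lay mostly in petiole. The form bra-miR2111a-5p stood at 0 throughout leaf and at 13.7, 7.19 and 9.04 in petiole. Its mean over the 6 libraries, 4.99, fell just under the filter. Without the filter it was called higher (limma adjusted p = 0.0014), against 13.6% of all 1011 sequences. With leaf at 0 throughout, its fitted difference depends on the value added before the logarithm, so no fold is given. The other strand of that locus, bra-miR2111a-3p, was listed at 0 in leaf and at 0, 10.6 and 7.23 in petiole. The form bra-miR2111-5p was at 5.21 in leaf replicate 2, at 9.59 and 9.04 in petiole replicates 2 and 3, and at 0 in the other libraries. Neither passed without the filter (limma adjusted p = 0.152 and 0.45).

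By strand, miR2111 was nearly all 3p in both tissues, although the 5p strand carries the known target pairing. The 3p forms summed to 101, 105 and 119 in leaf and 258, 305 and 245 in petiole. The 5p forms summed to 0, 5.21 and 0 in leaf and 13.7, 16.8 and 18.1 in petiole, with no overlap between the tissues. As a part of the miR2111 sum the 5p strand was 0%, 4.72% and 0% in leaf and 5.04%, 5.22% and 6.87% in petiole. The lowest petiole part lay just above the highest leaf part, which rested on 5.0 reads. Within loci as named, the ratio of 5p to 3p form did not differ between the tissues by the limma test. The limma adjusted p was 0.554 for bra-miR2111 and 0.437 for bra-miR2111a, against 48.1% of 54 loci called. Both loci held values of 0, and at these levels only a large shift could have been seen.

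The miR399 family was scarce in both tissues and higher in petiole. The sum of its forms was 28.0, 5.21 and 16.9 in leaf replicates 1 to 3 and 49.2, 36.5 and 49.7 in petiole replicates 1 to 3. The tissues did not overlap, and the log2 difference of the sums was 1.63 ± 0.56 (SE; limma adjusted p = 0.0326). With equal totals it was 2.44 ± 0.55 (limma adjusted p = 0.0055). As deposited the call was lost without leaf replicate 3 (1.77, limma adjusted p = 0.07) and without petiole replicate 1, 2 or 3 (1.56, 1.77 and 1.55, with limma adjusted p of 0.0624, 0.0505 and 0.0839). Without leaf replicate 2 it passed with a smaller difference of 1.001 (limma adjusted p = 0.0269).

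The larger part of this difference lay in the guide. The normalized counts of ath-miR399b were 13.5, 0 and 11.6 in leaf and 35.0, 24.0 and 34.4 in petiole, and the tissues did not overlap. Its log2 difference of 2.48 (95% interval 0.01 to 4.95) did not pass as deposited (limma adjusted p = 0.0875) but passed with equal totals (3.17, limma adjusted p = 0.0225) and as deposited without leaf replicate 2, at a smaller 1.23 (limma adjusted p = 0.0133), or with 5 added in place of 1, at 1.63 (limma adjusted p = 0.0238). In petiole ath-miR399b made up 71.2%, 65.8% and 69.1% of the miR399 sum. In leaf it made up 48.1%, 0% and 68.8%.

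The 5p forms of miR399 did not exceed 9.95 normalized counts in any library. The form cme-miR399g_L-1_1ss13CT was at 7.26, 5.21 and 5.30 in leaf and 5.67, 7.67 and 9.95 in petiole. These overlap, and the log2 difference of 0.32 (95% interval -0.46 to 1.11) did not pass (limma adjusted p = 0.437). With equal totals it was 1.07 and passed (limma adjusted p = 0.0239), close to the 0.97 by which the median of all sequences differed on that scale. The form ath-miR399c-5p_1ss20GC was at 7.26, 0 and 0 in leaf and 8.51, 4.80 and 5.43 in petiole and lay under the filter.

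**Figure D3:**
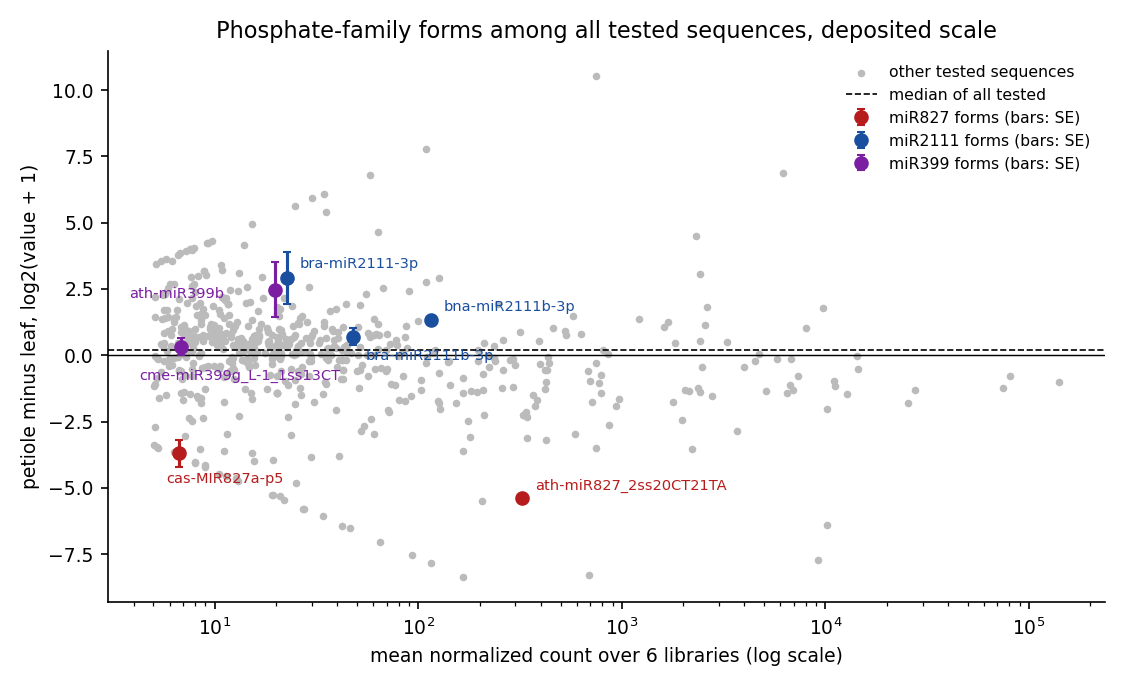
Each point is 1 of the 601 tested sequences, with its mean normalized count over 6 libraries on a logarithmic x axis and its petiole minus leaf difference of log2(value + 1) on the y axis; coloured points are the 7 tested members with their SE, and the dashed line is the median of all tested, 0.18. At -5.37, ath-miR827_2ss20CT21TA lies far below most sequences of its level, and bna-miR2111b-3p lies at 1.35.

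The order of the families changed between the tissues. In leaf, the sum of miR827 was above that of miR2111 in all 3 libraries, by 2.56 ± 0.13 on the log2 scale, and in petiole it was below in all 3, at -4.32 ± 0.05 (SD, n = 3 each). The difference between the tissues in this ratio, -6.88, is free of the library scale. An exact permutation test of 3 against 3 cannot go below a two-sided p of 0.1, so none was run. The ratio of miR399 to miR2111 was -1.85, -4.41 and -2.81 in leaf and -2.47, -3.14 and -2.40 in petiole, with the petiole values inside the range of the leaf values. Of all 80 family sums the difference of miR399 was the 6th highest and that of miR2111 the 7th highest as deposited.

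**Figure D4:**
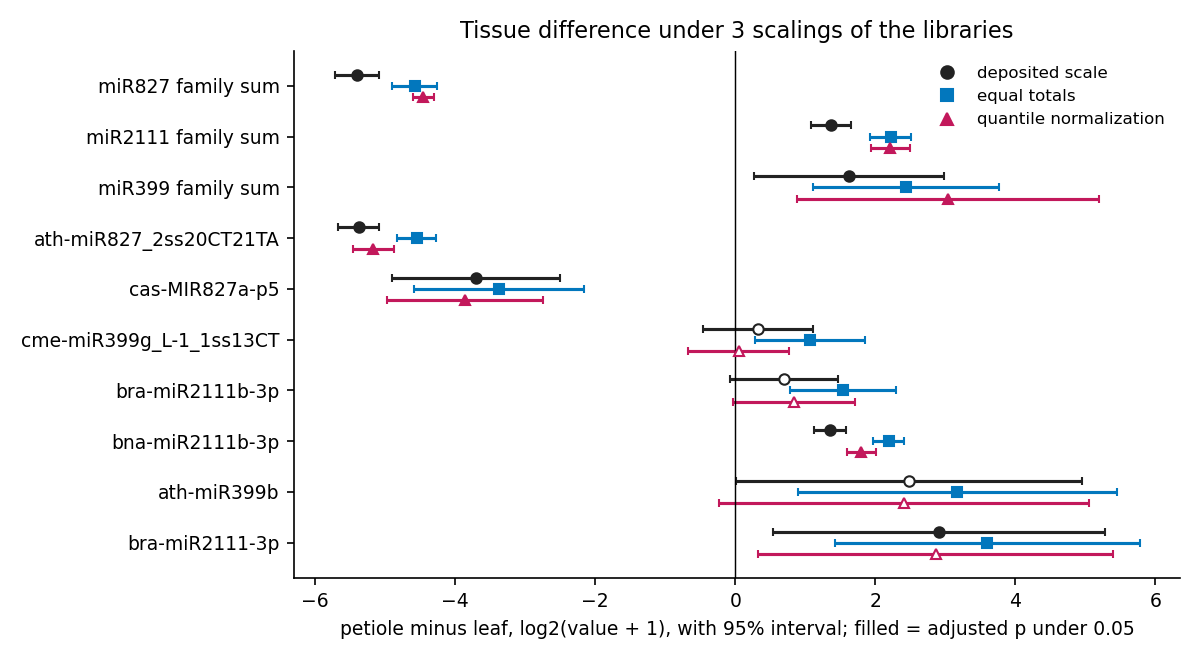
Petiole minus leaf differences of log2(value + 1), with 95% intervals, for the 3 family sums and the 7 tested forms on the deposited scale (circles), with equal totals (squares) and after quantile normalization (triangles); filled symbols passed an adjusted p under 0.05. miR827 lies left of 0 and the sums of miR2111 and miR399 right of 0 on every scale, while cme-miR399g_L-1_1ss13CT lies between 0.05 and 1.07.

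Among 318 other tested sequences with known family names, the ones nearest to the main forms were found by the root mean square difference of the centred log2 values over the 6 libraries. This measure mostly reads the size of the tissue difference. Nearest to ath-miR827_2ss20CT21TA were gma-MIR4995-p5 (0.236), bra-miR9552b-3p (0.236) and hbr-MIR6173-p5_1ss1AT (0.295), with mean levels in leaf of 43.6, 54.1 and 38.7 and no value above 0 in petiole. The differences of these 3, and so their likeness to miR827, depend on the value added before the logarithm. Nearest to bna-miR2111b-3p were bra-MIR5726-p5 (0.0622), aly-miR172b-5p (0.0869) and bra-MIR5726-p3_1ss20GA (0.105). The closest of these, bra-MIR5726-p5, had a mean of 680 in leaf and 1752 in petiole.

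Other families that respond to phosphate starvation in Arabidopsis did not share 1 direction. There miR156 rises under starvation, while miR169, miR395 and miR398 fall. Counts over the 4 families together therefore mix forms with opposite responses. Of the 47 sequences of these 4 families, 29 passed the filter, and 11 of them were higher and 13 lower in petiole, against 21.3% higher and 28.3% lower over all tested sequences, with a median log2 difference of -0.20 beside 0.18 for all tested. With equal totals 15 were higher and 11 lower, against 53.4% and 17.8% over all, with a median of 0.65 beside 0.97. On the deposited scale without petiole replicate 1, 7 of 33 tested were higher and 14 lower. Without petiole replicate 2, 7 of 32 were higher and 15 lower. The higher calls over all tested sequences were then 95 of 607 and 88 of 604, in the same order. The miR156 family, which represses SPL factors of phase change, had 8 lower and 2 higher of 12 tested. For miR169, which targets NF-YA factors, 3 were higher and 2 lower of 7. For miR395, which targets enzymes and transporters of sulfate use, the counts were 4 higher and 2 lower of 6, and for miR398, which targets copper/zinc superoxide dismutases, 2 higher and 1 lower of 4. With equal totals the counts were 4 higher and 7 lower for miR156, 5 and 2 for miR169, 4 and 1 for miR395, and 2 and 1 for miR398. The median log2 difference was -1.48 for miR156, 1.66 for miR169, 0.79 for miR395 and 0.42 for miR398, beside 0.18 for all tested. With equal totals these medians were -0.64, 2.48, 1.62 and 1.24, beside 0.97. As deposited without the filter, the miR169 median was 0.14, beside 0.29 over all sequences. Whether phosphate status bears on these directions was not tested.

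The most abundant tested form of each of these families gave a like mixture. The level of bna-miR156b fell, with a leaf mean of 4100 ± 340 and a petiole mean of 1426 ± 60.4 (SD, n = 3 each). The level of ath-MIR169e-p3, named for the 3p side of its precursor, rose from 27.9 ± 6.66 to 152 ± 14.5. The 5p entry cca-MIR395c-p5_1ss8CT fell from 205 ± 4.88 to 49.7 ± 9.47, and the 5p entry bra-miR398-5p_1ss8CT rose from 101 ± 1.09 to 393 ± 84.9. The limma adjusted p of these 4 differences was 7.8e-06, 5.4e-05, 3.8e-05 and 6.4e-05 in the order named. With equal totals their log2 differences kept their signs, at -0.67, 3.26, -1.19 and 2.77. In Arabidopsis the guides of miR395 and miR398 are 3p strands and that of miR169 a 5p strand, so the forms named for those families are the partner strands.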

How the data were processed

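Small RNA libraries were made with the TruSeq kit, and the ACGT101-miR program removed adapters, junk, repeats and reads of other RNA classes, per the labels' protocols, which mention more libraries than the 6 analysed here. The deposited signal values are normalized counts, per the file headers. How they were scaled, the genome build and the miRBase release were not stated. Values were normalized and often fell on steps of 0.5 reads, so no count model was run.

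The 1069 entries were merged to 1011 sequences, and repeats had the same values. Log2(value + 1) was tested with limma 3.58.1 under R 4.3.3, with a mean-variance trend, for sequences with a mean of at least 5, and p-values were adjusted over all of them by Benjamini and Hochberg. Differences are petiole minus leaf. Family sums joined all forms of a family, with miR157, miR165 and miR170 added to miR156, miR166 and miR171, and 5p to 3p ratios were tested per locus. The code was tested on simulated data. Libraries correlated at 0.94 to 0.96 within a tissue and 0.71 to 0.74 between tissues, and replicate pairs differed beyond counting noise. The labels do not tie replicates to separate plants. The p-values then describe the spread among these libraries alone, and that spread may be technical.

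Members and lists were chosen with earlier results of these data known. The text names every member, the 3 sequences nearest to each of 2 main forms, and the most abundant tested form of each of the 4 other families. Alternatives were equal totals, quantile normalization, other added values and filters, no trend, a replicate block, every repeated entry kept, and leaving out each library.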

Additional observations from a re-analysis of the deposited data

How the results depend on the processing

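The sums of miR827 and miR2111 and the forms ath-miR827_2ss20CT21TA and bna-miR2111b-3p kept direction and call under all alternatives run. The miR827 sum ranged from -5.51 to -4.46 and the miR2111 sum from 1.28 to 2.22. The miR399 sum ranged from 1.35 to 3.04 with all libraries in the fit, always past the threshold, and from 1.001 to 2.11 when 1 library was left out, where 2 of 6 fits passed. The 2 of 7 members called higher became 5 with equal totals and 1 with quantile normalization, a pseudocount of 0.5 or limma without trend. With equal totals and no filter, an alternative chosen after seeing the data, they became 6 of 11. Leaving out 1 library gave 1 to 4, of 7 to 9 tested. Without a leaf library the filter also let in bra-miR2111a-5p, listed at 0 throughout leaf, through petiole alone. The 2 called lower became 1 with a mean of at least 20, since cas-MIR827a-p5 was then not tested; leaving out 1 library gave 1 to 2. Over all sequences, 128 higher and 170 lower calls became 321 and 107 with equal totals, and 340 higher with equal totals and no filter. Families called higher went from 22 to 39, 34 with quantile normalization and 42 with equal totals and no filter. The 11 higher calls of the other starvation families, of 29 tested, became 18 of 47 with equal totals and no filter. When 1 library was left out there were 7 to 10, of 29 to 33 tested. Over all sequences the same settings gave 340 of 1011, and 88 to 125 of 599 to 614. The arm ratio of bra-miR2111 ranged from -2.79 to 0.51 and that of bra-miR2111a from -0.10 to 2.08 when 1 library was left out, and neither passed in any fit. Replicate numbers did not pair the libraries, with correlations of same-numbered deviations of 0.07, 0.01 and 0.01; with a replicate block the miR827, miR2111 and miR399 sums were called as before (-5.40, 1.37 and 1.63), 117 sequences were higher and 163 lower, bra-miR2111-3p lost its call (adjusted p = 0.0572) and ath-miR399b gained one (adjusted p = 0.0488). The cause of these changes was not tested. The lowest member values above 0 rest on 5.0 reads, so counting precision is least for the rarest forms.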
